A study of Homo sapiens with 4 samples.

Results

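Long noncoding RNA loci were taken here as the H4K20me1 peaks of Kasumi-1 cells whose nearest gene carries a long noncoding RNA symbol. A peak was included where the symbol starts with LINC, or ends in -AS and a number, in -DT or in -IT1, and where the deposited annotation does not place it in distal intergenic DNA. The rule used names and positions and no measured value. It found 919 of the 25514 peaks in the table (3.60%), next to 497 genes, of which 339 had 1 peak and 158 had more. They were 420 peaks at 207 LINC genes, 470 at 273 antisense genes, 10 at 9 -DT genes and 19 at 8 -IT1 genes.

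The series profiled H4K20me1 by CUT&Tag, in which an antibody brings a transposase to the marked chromatin and the cut DNA is sequenced. Kasumi-1 is an acute myeloid leukemia cell line with the t(8;21) translocation, which fuses RUNX1 to RUNX1T1. There were 4 libraries, each made from 100000 cells: 2 were labelled SETD8 knockout by CRISPR/Cas9, and 2 were labelled wild type with a non-targeting guide (sgNT), the reference. The labels do not state whether the knockout was 1 clone or a pool, nor the time after editing. The deposited table holds 1 value per group and peak, in a first and a second column. Its header does not say which group is which. The name under which it was deposited has treated ahead of control, by which the first column would hold the knockout, and the columns are called by their position here. SETD8 (KMT5A) itself had 3 peaks with 489 reads in the first column and 422 reads in the second column, which checks no label, since the mark over a gene does not measure its protein.

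H4K20me1 is the single methyl group on lysine 20 of histone H4. SETD8 places it, the KMT5B and KMT5C enzymes extend it to the di- and trimethyl forms, and readers such as L3MBTL1 and condensin II bind it. The mark is known to build up towards mitosis and to spread over the bodies of transcribed genes. Long noncoding RNAs are transcripts without a protein product, and their symbols describe position: LINC for a gene between coding genes, -AS for one antisense to the gene named before the dash, -DT for one that starts beside a coding gene and runs the other way, and -IT for one inside an intron.

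The label held for the names but less well for the positions. Of the 919 peaks, 917 were found in RefSeq by gene number, and 916 of those carry a long noncoding or antisense RNA type. The peak names come from the nearest transcription start, however, and 254 peaks (202 of them within 1 kb of it) lay in promoters, 588 in introns, 58 in exons, 10 in 3′ untranslated regions, 8 just downstream of a gene and 1 in a 5′ untranslated region. Of the 646 exon and intron peaks, 224 lay inside the lncRNA gene that names them. A further 209 lay inside the coding gene for which the lncRNA is named, its partner gene, and 28 inside another coding gene. Another 33 were in a different noncoding gene and 152 in a transcript to which the annotation gives no gene number. Intron peaks lay a median of 42.3 kb from the start that named them, and 161 of the 588 lay more than 100 kb from it. A peak named for an antisense RNA thus often marks the body of its partner gene, and the 2 cannot be told apart where they overlap, since the reads carry no strand of a transcript. Of 8 genes typical of the line, 5 had a peak (RUNX1, RUNX1T1, KIT, CD34 and SPI1), while CD33, MPO and CEBPA had none. Of 9 genes of other lineages, 2 had a peak (ALB and GCG). These counts show where the mark was called and not expression.

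The promoters of 5 antisense genes are shown because their starts lie inside peaks discussed below: THUMPD3-AS1 and HIF1A-AS1 were among the densest peaks, ZNF433-AS1 and HMGN3-AS1 belong to loci with the largest differences, and HDAC2-AS2 carried the mark over a promoter almost without CG dinucleotides. Each run is 300 bases from RefSeq (GRCh38.p14), from 250 before to 50 after the transcription start, 5′ to 3′ on the gene's own strand, with CG dinucleotides in capitals. They come from chr3:9396574-9396873 (minus strand), chr14:61695774-61696073 (minus), chr19:11987367-11987666 (plus), chr6:79233424-79233723 (plus) and chr6:113969451-113969750 (plus), in the order printed.
THUMPD3-AS1: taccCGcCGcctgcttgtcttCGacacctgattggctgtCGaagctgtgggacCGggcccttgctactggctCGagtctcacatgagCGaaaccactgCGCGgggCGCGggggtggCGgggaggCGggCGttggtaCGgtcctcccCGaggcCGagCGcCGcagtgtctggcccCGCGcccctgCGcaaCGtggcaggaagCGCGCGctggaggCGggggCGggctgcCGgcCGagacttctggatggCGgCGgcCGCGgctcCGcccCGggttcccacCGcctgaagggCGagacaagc
HIF1A-AS1: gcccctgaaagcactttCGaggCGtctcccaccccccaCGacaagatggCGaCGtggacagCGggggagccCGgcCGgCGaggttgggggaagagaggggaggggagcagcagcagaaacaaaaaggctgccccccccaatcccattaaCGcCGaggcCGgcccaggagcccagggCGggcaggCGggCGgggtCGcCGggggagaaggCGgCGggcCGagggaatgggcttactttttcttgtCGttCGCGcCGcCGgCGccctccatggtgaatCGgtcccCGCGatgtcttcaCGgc
ZNF433-AS1: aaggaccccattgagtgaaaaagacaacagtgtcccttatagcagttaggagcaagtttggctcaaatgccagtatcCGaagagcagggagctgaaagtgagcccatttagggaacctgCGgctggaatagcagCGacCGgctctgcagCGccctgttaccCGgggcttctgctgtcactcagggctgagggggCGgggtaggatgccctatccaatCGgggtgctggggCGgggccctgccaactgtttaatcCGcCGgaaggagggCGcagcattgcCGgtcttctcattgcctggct
HMGN3-AS1: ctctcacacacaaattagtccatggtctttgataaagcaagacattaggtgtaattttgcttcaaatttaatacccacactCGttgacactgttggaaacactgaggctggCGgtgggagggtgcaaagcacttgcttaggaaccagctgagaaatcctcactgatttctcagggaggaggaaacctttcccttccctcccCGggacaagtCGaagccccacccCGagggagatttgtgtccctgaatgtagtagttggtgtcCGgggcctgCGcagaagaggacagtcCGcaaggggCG
HDAC2-AS2: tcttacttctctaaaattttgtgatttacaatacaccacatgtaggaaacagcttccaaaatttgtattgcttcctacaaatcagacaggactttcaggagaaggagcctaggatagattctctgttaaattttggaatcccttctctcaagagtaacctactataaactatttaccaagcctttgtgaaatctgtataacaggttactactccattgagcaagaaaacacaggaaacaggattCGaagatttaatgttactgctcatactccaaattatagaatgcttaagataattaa

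The capitals show how far these promoters differ: 38 CG dinucleotides in THUMPD3-AS1, 30 in HIF1A-AS1, 13 in ZNF433-AS1, 9 in HMGN3-AS1 and 1 in HDAC2-AS2. RefSeq promoters were found for 353 of the 497 genes. Their median was 9 CG dinucleotides (quartiles 3 and 25), and the 188 genes with a peak in the promoter had a median of 19 (quartiles 6 and 31.2), against 14 over all 35116 promoters of the table (quartiles 4 and 28). Letters of 3 motifs were also searched on both strands: GGAA, the core that ETS factors bind, TGTGGT, the core that RUNX factors bind, and CANNTG, the E-box, which reads the same on both strands and whose matches may overlap those of the others. TGTGGT was in 18.4% of the 353 promoters, against 13.1% of all promoters, GGAA in 96.0%, against 95.5%, and CANNTG in 70.0%, against 68.7%. These matches describe letters and not binding.

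LncRNA peaks carried slightly less of the mark than the table as a whole. In the first column they held a median of 60.4 scaled reads per kb of peak (quartiles 44.3 and 86.2), and in the second column 60.8 (quartiles 44.0 and 84.6). Over all peaks the medians were 71.1 in the first column and 68.9 in the second column. The lncRNA peaks made up 3.55% of the width of all peaks, but 2.77% of the reads in the first column and 2.90% in the second column. Their widths were like those of all peaks (median 1123 bp, against 1097 bp), so the lower share was one of density. Over deciles of the table by signal, they were 4.98% of the fifth decile from the bottom and 1.72% of the highest decile.

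Of the 6 densest lncRNA peaks, 1 per gene, 4 held the start of a coding gene or were annotated to an intron of one. The RAB11B-AS1 peak, from base 8390371 of chromosome 19, begins beside the start of RAB11B at 8390360. Whether promoter peaks without a coding start lie inside a coding gene was not determined. The start of SRD5A3-AS1, antisense to a polyprenol reductase gene of glycosylation, lies in a 4051 bp peak at chr4:55395625-55399675 that also holds the start of TMEM165, a Golgi membrane protein gene. That peak had 307 scaled reads per kb in the first column and 234 in the second column. Its 1243 reads in the first column and 987 in the second column were the most in this set of 6 peaks and gave a log2 fold change of 0.39 (95% counting interval 0.27 to 0.51). The peak named MBNL1-AS1, in an intron of the splicing regulator gene MBNL1, had 301 scaled reads per kb in the first column and 345 in the second column. Its fold was −0.21 with an interval of −0.55 to 0.13, which crosses 0. The promoter peak of HIF1A-AS1, which also holds the start of HIF1A, the oxygen-regulated transcription factor subunit gene, had 262 scaled reads per kb in the first and 234 in the second column. THUMPD3-AS1 (268 per kb in the first and 235 in the second column), RAB11B-AS1 (247 per kb in the first and 235 in the second column) and LINC01637, inside an intron of the adaptor gene CRKL (207 per kb in the first and 286 in the second column), completed the 6. Of these 6 peaks, the intervals of SRD5A3-AS1, higher in the first column, and of LINC01637 (−0.47, interval −0.79 to −0.15), lower in it, left out 0.

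Differences between the groups were small in most lncRNA peaks. Their median log2 fold change, first minus second column, was 0.03 (quartiles −0.24 and 0.27), against 0.06 over all peaks (quartiles −0.19 and 0.32), and 478 of 919 (52.0%) lay above 0, against 58.2% of all peaks. A fold of 1 or more on the log2 scale was found in 15 lncRNA peaks (1.63%; 1.55% of all peaks), and one of −1 or less in 7 (0.762%; 0.909% of all peaks). Both shares were near those of the table. In the authors' deposited table, 20 lncRNA peaks were higher at an unadjusted p-value under 0.05 (2.18%, against 3.37% of all peaks) and 18 were lower (1.96%, against 1.69%). No lncRNA peak passed an adjusted p-value of 0.05 in the authors' deposited table, where the smallest was 0.433. Counting intervals lay above 0 in 105 lncRNA peaks (11.4%, against 17.1% of all peaks) and below 0 in 95 (10.3%, against 8.11%). These exact intervals cover the counting error of reads only, not the spread between cultures, and are too narrow if both ends of a fragment were counted.

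**Figure D1:**
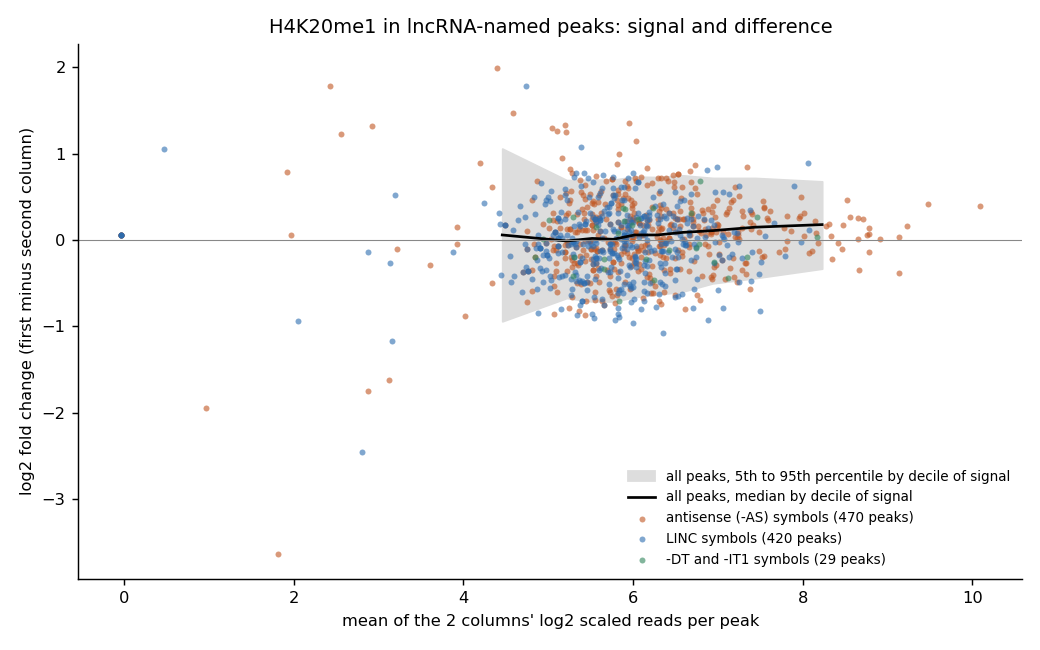
Log2 fold change (first minus second column, vertical axis) of each of the 919 lncRNA peaks against the mean of its log2 scaled reads in the 2 groups (horizontal axis), coloured by kind of symbol, over the 5th to 95th percentile (grey) and median (line) of all peaks by decile of signal. Most points lie within the grey band, and the folds beyond 1 in size are mostly at peaks with few reads.

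Introns, where most of these peaks lay, separated the LINC from the antisense symbols. The 300 intron peaks of LINC genes had a median fold of −0.06 (quartiles −0.36 and 0.19), with 124 above 0 (41.3%). The 271 intron peaks of antisense genes had a median of 0.10 (quartiles −0.19 and 0.42), with 156 above 0 (57.6%). Summed over peaks, the LINC introns held 17780 reads in the first column and 19530 in the second column, a fold of −0.08 (interval −0.11 to −0.05), and the antisense introns held 21553 reads in the first and 20298 in the second column, a fold of 0.14 (interval 0.12 to 0.17). LINC introns thus lay below the median of all peaks (0.06), and antisense introns were near the 8685 other intron peaks of the table (median 0.11, 61.7% above 0). Counting intervals lay above 0 in 16 (5.33%) and below 0 in 37 (12.3%) of the LINC intron peaks. They lay above 0 in 48 (17.7%) and below 0 in 20 (7.38%) of the antisense intron peaks, near the shares of all peaks (17.1% and 8.11%). Among the other intron peaks the shares were 21.2% above and 6.70% below 0. With 1 column per group this difference was not tested. It did not depend on the loci with most peaks: without the 6 genes that had most of them the medians were −0.06 for LINC and 0.10 for antisense introns. The signs depend on the scaling, since with equal reads in peaks every fold falls by 0.11, which puts the antisense introns at −0.01 and the LINC introns at −0.17, and the gap between them stays.

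Folds also differed by the place of a peak. Each exon and intron peak was placed by the 1 transcript that the annotation names for it. The 237 placed in a coding gene had a median fold of 0.09 (quartiles −0.19 and 0.34). The 409 placed elsewhere had one of −0.05 (quartiles −0.31 and 0.24). The 7713 intron peaks in coding genes that no lncRNA names had a median of 0.13. A peak placed in an antisense gene may also overlap its partner gene, so the 409 are not shown to lie outside coding genes. With 1 peak per gene the median of peaks placed elsewhere was 0.015, above 0, and that of peaks placed in coding genes 0.085. With equal reads in peaks the median inside coding genes was −0.024. Peaks in the partner gene had a median of 0.10, those in the lncRNA gene itself −0.02, and those in transcripts without a gene number −0.08. Levels followed the same order: in the first column the median was 68.7 scaled reads per kb in coding genes and 53.6 elsewhere, and in the second column 64.1 and 56.0. Kind of symbol and place could not be fully separated, since 191 antisense peaks and no LINC peak lay in a partner gene. Within the lncRNA gene itself, 60 antisense peaks had a median of 0.06 and 164 LINC peaks one of −0.04. In transcripts without a gene number the medians were −0.01 for 26 antisense peaks and −0.08 for 126 LINC peaks. Within a coding gene other than a partner, 14 antisense peaks had a median of 0.17 and 14 LINC peaks one of −0.03.

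**Figure D2:**
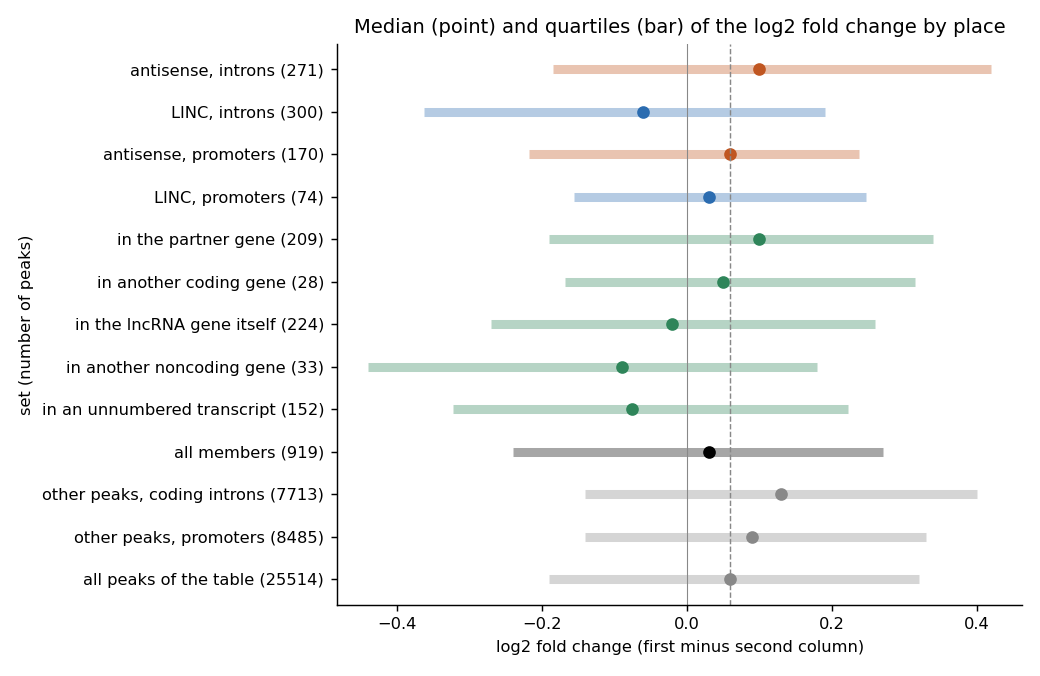
Median (point) and quartiles (bar) of the log2 fold change, first minus second column, for lncRNA peaks by kind of symbol and by the gene they lie in, with the number of peaks in brackets and other peaks of the table in grey. LINC introns (−0.06) lie below the dashed line at the median of all peaks (0.06), and antisense introns (0.10) lie between it and the other peaks in coding introns (0.13), while all bars overlap.

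Promoters showed no such split. The 74 promoter peaks of LINC genes had a median fold of 0.03 (quartiles −0.16 and 0.25), with 6060 reads summed in each group. The 170 promoter peaks of antisense genes had one of 0.06 (quartiles −0.22 and 0.24), with 23308 reads in the first column and 23477 in the second column. Both medians were close to those of the other 8485 promoter peaks (0.09). Of the 254 lncRNA promoter peaks, 79 also hold the start of a coding gene in RefSeq. They were denser, with a median of 77.7 scaled reads per kb in the first column and 76.7 in the second column, than the 175 without one, at 65.4 and 64.6. The medians of the folds were 0.05 with and 0.06 without a coding start.

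Peaks with the largest differences were named among those at or above the median signal of the table, 1 per gene. Of the 12 highest, 9 were antisense and 3 were LINC genes, and of the 12 lowest, 5 were antisense and 7 LINC genes. The 363 lncRNA peaks at or above that signal, before 1 per gene was taken, included 218 antisense and 132 LINC peaks. The highest was the peak named ZNF433-AS1 at chr19:12033382-12035680, which holds the start of ZNF433, a zinc-finger gene, and not the start of the antisense gene printed above, 48062 bases away. It had 98 reads in the first column and 46 in the second column, a log2 fold change of 1.15 (interval 0.63 to 1.69). The peak over the antisense start itself had 170 reads in the first column and 129 in the second column, a fold of 0.46 (interval 0.12 to 0.80). The intervals of these 2 peaks overlap, and their difference was not tested. The third peak of the locus, in an intron, had 51 reads in the first and 45 in the second column, a fold of 0.24 (interval −0.37 to 0.85). LINC00909, with a peak over its start at chr18:74598239-74601023, had the most reads of the 24: 365 in the first column and 205 in the second column, a fold of 0.89 (interval 0.64 to 1.14).

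Several of the high peaks lay inside coding genes. TET2-AS1 lies antisense to TET2, the enzyme that oxidises 5-methylcytosine and a gene often mutated in myeloid leukemia. The peak at chr4:105195869-105196986, in an intron of TET2, had 144 reads in the first column and 82 in the second column, a fold of 0.87 (interval 0.47 to 1.28). A peak further along the same intron had 96 reads in the first and 56 in the second column, a fold of 0.83 (interval 0.34 to 1.34). The other 2 peaks named TET2-AS1 did not share this: the one in a 5′ untranslated region had 122 reads in the first column and 149 in the second column, the one in an exon of TET2-AS1 itself 36 in the first and 44 in the second column, both with a fold of −0.23 and an interval across 0. WDFY3-AS2, in the first intron of WDFY3, an autophagy adaptor gene, had 134 reads in the first column and 80 in the second column, a fold of 0.80 (interval 0.39 to 1.22). GRIK1-AS2 is named for a glutamate receptor gene, but its peak (108 reads in the first and 68 in the second column, fold 0.72) lay in an intron of BACH1, a heme-regulated repressor gene. The KCNAB1-AS1 peak lay in an intron of KCNAB1, a potassium channel subunit gene (115 reads in the first and 71 in the second column, fold 0.75), and that of UBOX5-AS1 in its own intron (101 reads in the first and 64 in the second column, fold 0.72). The TBC1D22A-AS1 peak at chr22:46969678-46971772 had 218 reads in the first column and 126 in the second column, a fold of 0.85, and lay in intron 9 of TBC1D22A, 53.8 kb from the start that named it. The other 4 high peaks lay within 3 kb of a start: LINC01619 (fold 0.85), LINC01311 (0.81), ACVR2B-AS1, beside an activin receptor gene (0.77), and ST7-AS2 (0.77). The counting intervals of all 12 lay above 0, which the choice of the largest folds favours and which is no support of its own.

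Among the lowest peaks, 3 LINC intron peaks came first. The peak named LINC01884 had 56 reads in the first column and 123 in the second column at chr2:22436480-22438095, a fold of −1.08 (interval −1.56 to −0.61). It lay in an intron of a transcript without a gene number, 98.4 kb from the start that named it. LINC01194 had 86 reads in the first and 170 in the second column in its own intron at chr5:12754939-12757559, a fold of −0.93 (interval −1.32 to −0.54). LINC02112, also on the short arm of chromosome 5, had 136 reads in the first and 250 in the second column, a fold of −0.82 (interval −1.13 to −0.51). These peaks had fewer reads in the first column than in the second by a wide margin, and all are named for intergenic RNAs whose function the deposited files do not describe. The peak named LINC01867 (52 reads in the first column and 94 in the second column, fold −0.80) lay in an intron far from that gene's start. LINC00470 (102 reads in the first and 183 in the second column, fold −0.79) and LINC01515 (59 reads in the first and 105 in the second column, fold −0.77) had many other peaks, described below.

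Coding starts lay in 2 of the low promoter peaks. HMGN3-AS1, printed above, shares its peak at chr6:79233256-79234812 with the start of HMGN3, a nucleosome-binding protein gene, and had 87 reads in the first column and 146 in the second column, a fold of −0.69 (interval −1.09 to −0.30). ASB16-AS1 shares its peak with the start of TMUB2 and had 55 reads in the first column and 91 in the second column, a fold of −0.67 (interval −1.18 to −0.17). OVOL1-AS1, beside a zinc-finger gene of epithelia (74 reads in the first and 134 in the second column, fold −0.80), LINC02092 (80 reads in the first and 143 in the second column, fold −0.78) and DLGAP1-AS3, antisense to a synaptic scaffold gene (62 reads in the first and 105 in the second column, fold −0.70), were promoter peaks without a coding start. NAALADL2-AS1 (62 reads in the first and 108 in the second column, fold −0.74) lay in an intron of NAALADL2. All 12 intervals lay below 0, which the choice of the lowest folds favours in the same way. Unadjusted p-values under 0.05 were given by the authors' deposited table to 7 of the 12 high and 5 of the 12 low peaks. The choice of the highest and lowest folds favours small p-values too, so these counts are no support of their own. In the authors' deposited table the adjusted p-values of these high and low peaks ran from 0.806 (ZNF433-AS1) to 0.998 (ASB16-AS1).

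**Figure D3:**
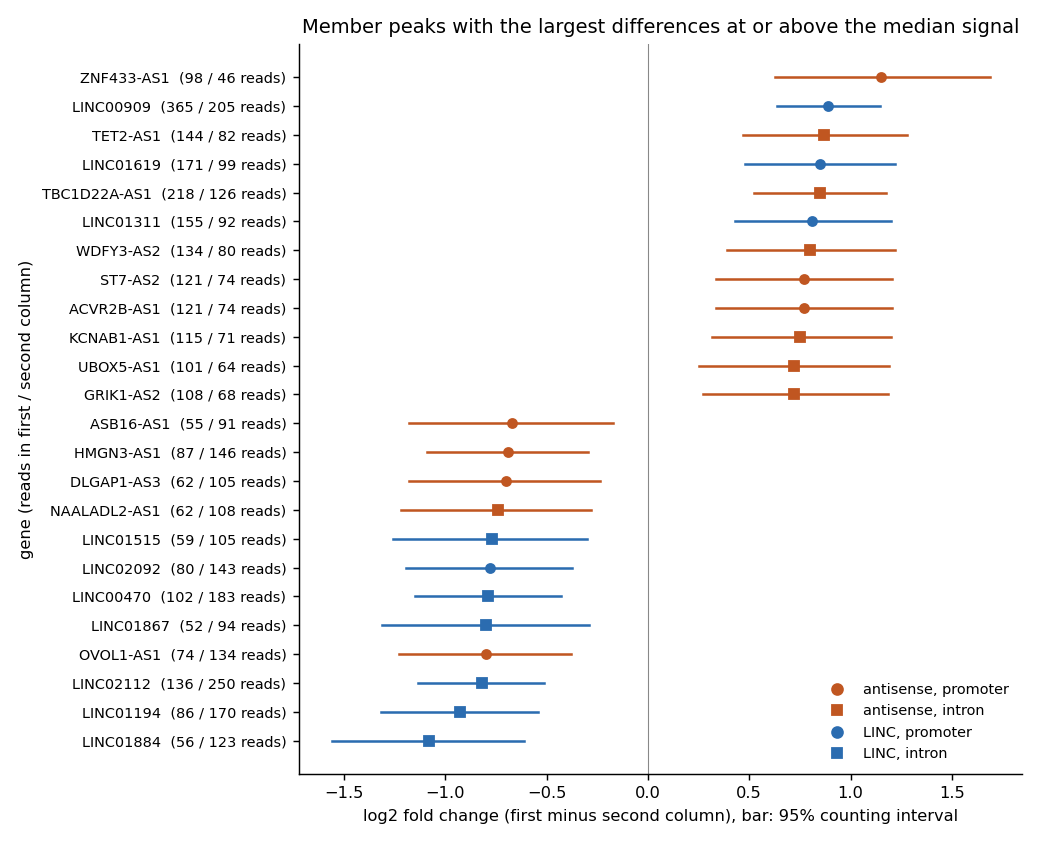
Log2 fold change, first minus second column, with its exact 95% counting interval for the 12 highest and 12 lowest lncRNA peaks at or above the median signal, 1 per gene, with the reads of the first and second column beside each name. Values run from 1.15 (ZNF433-AS1) to −1.08 (LINC01884), and 7 of the 12 low peaks are LINC genes, against 3 of the 12 high peaks. Among all 363 lncRNA peaks at or above the median signal, 132 are LINC peaks.

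Where a locus had many peaks, they did not all go one way. LINC01194 and LINC00470 had 20 peaks each, TBC1D22A-AS1 had 13, CELF2-AS1 had 11 and LINC01515 and LINC02112 had 10 each, together 84 peaks (9.14%). LINC02114 also had 10 and was left out by name order. Along LINC00470, the peaks spanned 807 kb of chromosome 18, and only 1 lay within 3 kb of its start. Their sum was 1258 reads in the first column and 1361 in the second column, a fold of −0.06 (interval −0.17 to 0.06) that becomes −0.17 (interval −0.28 to −0.06) with equal reads in peaks. Single peaks ranged from −0.96 to 0.63, and the 2 lowest stood side by side at the far end, 533 and 546 kb from the start, in a transcript without a gene number. One of them had 46 reads in the first column and 93 in the second column, and the other is the peak named above. The intervals of the other 18 peaks, with the authors' scaling, all crossed 0.

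LINC01194 spanned 440 kb of chromosome 5 and held 1572 reads in the first column and 1825 in the second column, a fold of −0.16 (interval −0.26 to −0.06). Its promoter peak had 55 reads in the first column and 93 in the second column, a fold of −0.70 (interval −1.21 to −0.21). The largest peak, 360 kb from the start, had 282 reads in the first and 270 in the second column, a fold of 0.12 (interval −0.13 to 0.37). Intervals below 0 thus lay at the start and about the middle of the locus and not at its far end. Another 2 of the 20 peaks had 1 read in each column and hold no information. LINC02112 summed to 1155 reads in the first column and 1324 in the second column, a fold of −0.14 (interval −0.26 to −0.03), of which the single peak named above made up the larger part of the gap. LINC01515 summed to 590 reads in the first and 693 in the second column, a fold of −0.18 (interval −0.34 to −0.01), with 5 peaks above and 5 below 0.

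The antisense loci with many peaks were bodies of coding genes. All 13 peaks named TBC1D22A-AS1 but 1 lay in introns 8 to 13 of TBC1D22A, a gene of the family of Rab regulators with a TBC domain. They summed to 1314 reads in the first column and 1142 in the second column, a fold of 0.26 (interval 0.14 to 0.38). The highest was 1.30 (52 reads in the first and 22 in the second column) and the lowest −0.32 (126 reads in the first and 164 in the second column), so 9 were above and 4 below 0. The 5 peaks named for TBC1D22A itself, nearer to its start, held 559 reads in the first column and 450 in the second column, a fold of 0.37 (interval 0.19 to 0.55). The 11 peaks named CELF2-AS1 lay in introns and 3′ untranslated regions of CELF2, a splicing regulator gene, and held 2395 reads in the first and 2277 in the second column, a fold of 0.13 (interval 0.05 to 0.21), or 0.02 (interval −0.07 to 0.10) with equal reads in peaks. The 13 peaks named for CELF2 held 4141 in the first and 3897 in the second column, a fold of 0.14 (interval 0.08 to 0.21). In both genes the antisense-named and the partner-named stretch thus gave similar values.

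**Figure D4:**
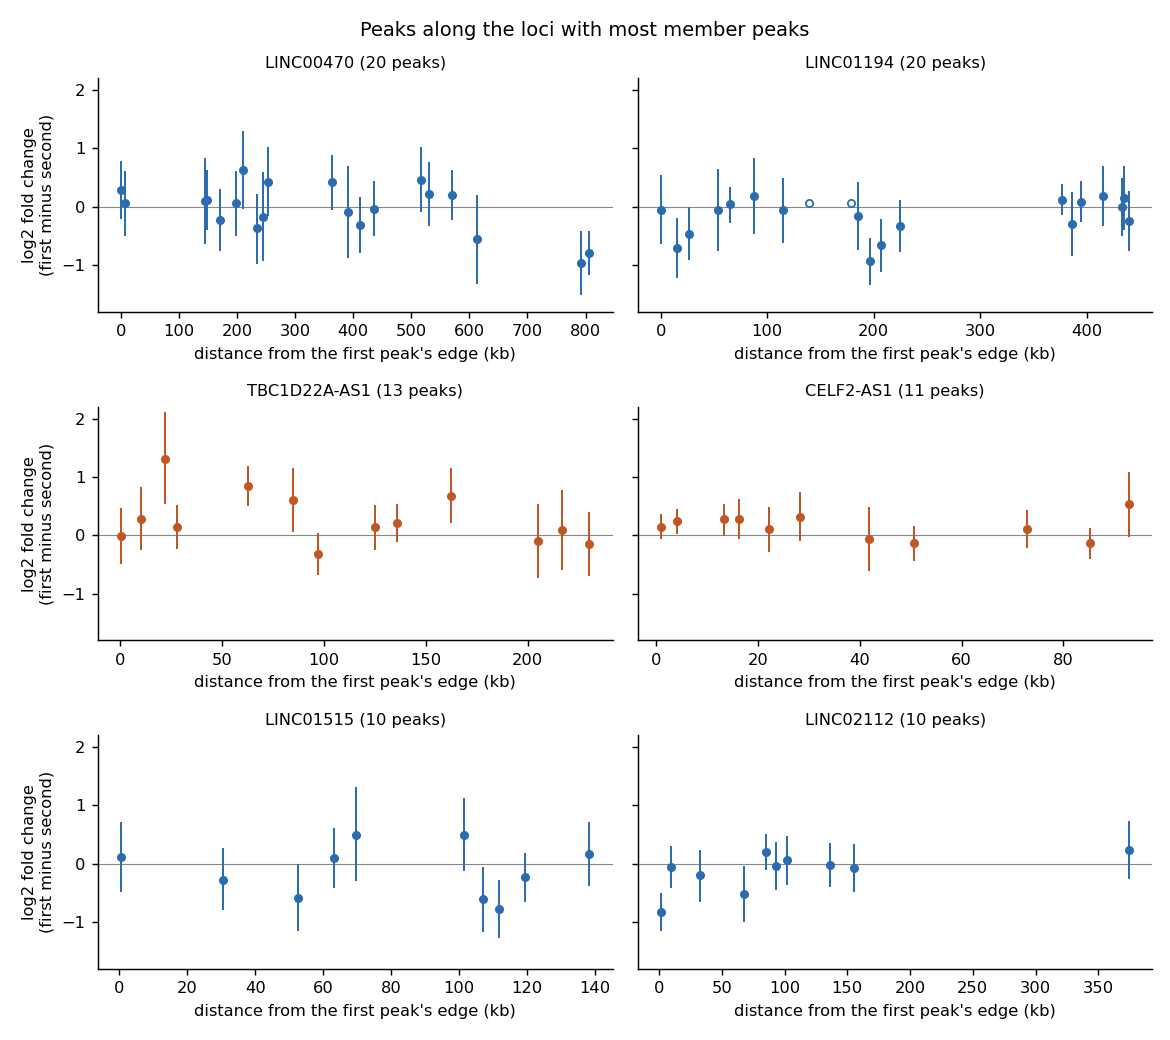
Log2 fold change, first minus second column, with exact 95% counting intervals (vertical bars) of each peak along the 6 loci with most lncRNA peaks, against the distance in kb from the first peak's edge, with open points for the 2 LINC01194 peaks of 1 read. The lowest LINC00470 peaks (−0.96 and −0.79) stand together at the far end, while most TBC1D22A-AS1 and CELF2-AS1 peaks lie at or above 0.

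Over the 158 genes with more than 1 peak, all peaks lay above 0 in 37 genes and all below 0 in 27. Among those with 5 or more peaks these counts were 3 and 3. The same shares over all genes of the table were not computed, so these counts are not read as a trait of lncRNA genes. Of the 35 genes with 5 or more peaks, the summed interval lay above 0 in 7 (20%) and below 0 in 5 (14.3%), against 46.7% and 12.3% of all 820 genes with as many peaks outside distal intergenic DNA. Scaled to equal reads in peaks, it lay above 0 in 5 and below 0 in 14 of the 35, against 29.3% and 25.9% of the 820, so which direction prevailed among the 35 depends on the scaling. The highest of the 35 was LINC-PINT (0.52), the lowest LINC01867 (−0.56). LINC01867 had 216 reads in the first column and 332 in the second column over 6 peaks, every one below 0, and LINC02199 had 313 in the first and 476 in the second column over 5 peaks, every one below 0. SEC24B-AS1, antisense to a COPII coat gene, had 850 reads in the first and 699 in the second column over 5 peaks, and IGF2BP2-AS1, antisense to an RNA-binding protein gene, had 721 in the first and 581 in the second column over 5 peaks. In both of these genes every peak lay above 0, though the lowest of IGF2BP2-AS1 (0.01) falls below it with equal reads in peaks.

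Of the lncRNA genes tied to growth control and p53, 1 locus, LINC-PINT, had intervals off 0. Of 18 listed symbols, 5 genes had peaks, 11 in all, and each of the 11 was above 0 (range 0.02 to 0.78, median 0.39, against 0.06 over all peaks), though those of TMPO-AS1 and LINC00667 fall below it when scaled to equal reads in peaks. None passed an unadjusted p-value of 0.05 in the authors' deposited table. LINC-PINT, a p53-induced RNA reported to act with Polycomb repressive complex 2, accounted for 6 of them. These held 613 reads in the first column and 446 in the second column, a fold of 0.52 (interval 0.34 to 0.70). Its promoter peak had 152 reads in the first column and 107 in the second column, a fold of 0.56 (interval 0.20 to 0.93), and the peaks in its first intron had 56, 84 and 88 reads in the first column, against 34, 51 and 70 in the second column. The other 2, with 124 and 109 reads in the first column, against 89 and 95 in the second column, lay in the neighbouring LINC00513. All 6 were above 0, and 4 of the 6 intervals lay above 0. The 5 further peaks, at FGD5-AS1, LINC00667, TMPO-AS1 (antisense to a nuclear lamina protein gene) and LINC01138 (2 peaks), had intervals across 0, and LINC01138 belongs to a duplicated stretch of chromosome 1, where the reads of its promoter peak (11 in the first and 8 in the second column) are uncertain.

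Of 36 listed symbols of blood and leukemia, 7 genes had 10 peaks, 7 above and 3 below 0, where 58.2% of all peaks lay above 0. Their median was 0.27, against 0.06 over all peaks, and TET2-AS1 held 4 of the 10. HOXB-AS3 also falls below 0 with equal reads in peaks. SATB1-AS1 shares its peak with the start of SATB1, a chromatin organiser gene of lymphoid cells, and had 217 reads in the first column and 165 in the second column, a fold of 0.45 (interval 0.15 to 0.75). CEBPB-AS1, beside the gene of the myeloid factor C/EBPβ, had 209 reads in the first and 182 in the second column, a fold of 0.26 (interval −0.04 to 0.55). ZEB1-AS1, at the start of a zinc-finger repressor gene, had 95 reads in the first and 77 in the second column, and FOXP1-AS1, in an intron of the forkhead factor gene FOXP1, had 89 in the first and 76 in the second column. HOXB-AS3, in the HOXB cluster, had 115 reads in the first and 113 in the second column and LINC00641 had 136 in the first and 158 in the second column. Apart from TET2-AS1, described above, SATB1-AS1 was the only one of these genes whose interval left out 0.

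Antisense genes of chromatin and of mitochondrial genes had folds on both sides of 0. Besides TET2-AS1, the chromatin list held HDAC2-AS2, KDM4A-AS1 and L3MBTL4-AS1, and its 12 peaks had a median of −0.06. HDAC2-AS2, antisense to a histone deacetylase gene, had 540 reads in the first column and 593 in the second column over 5 peaks, a fold of −0.08 (interval −0.25 to 0.09). Its peak at chr6:114108280-114109735 lies 2.65 kb from another annotated start of the gene, far from the start printed above. That peak had 107 reads in the first column and 147 in the second column, a fold of −0.40 (interval −0.77 to −0.03). It was the only one of the 5 whose interval left out 0. The printed promoter, nearly free of CG dinucleotides, lies in a peak that also holds the start of HDAC2. This promoter peak had 294 reads in the first and 289 in the second column. KDM4A-AS1, antisense to a histone demethylase gene, had 96 reads in the first and 80 in the second column, and L3MBTL4-AS1, antisense to a gene of the family that reads methylated lysines, had 107 in the first and 119 in the second column over 2 peaks, with intervals across 0. The mitochondrial list held 4 promoter peaks with a median of 0.15. NDUFB2-AS1, antisense to a complex I subunit gene, had 83 reads in the first column and 54 in the second column, a fold of 0.68 (interval 0.17 to 1.20), while NDUFV2-AS1, at another complex I gene, had 338 in the first and 359 in the second column, a fold of −0.03 (interval −0.25 to 0.19). SLC25A30-AS1 (51 reads in the first and 46 in the second column) and SLC25A5-AS1 (95 reads in the first and 93 in the second column), of mitochondrial carriers, had intervals across 0.

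**Figure D5:**
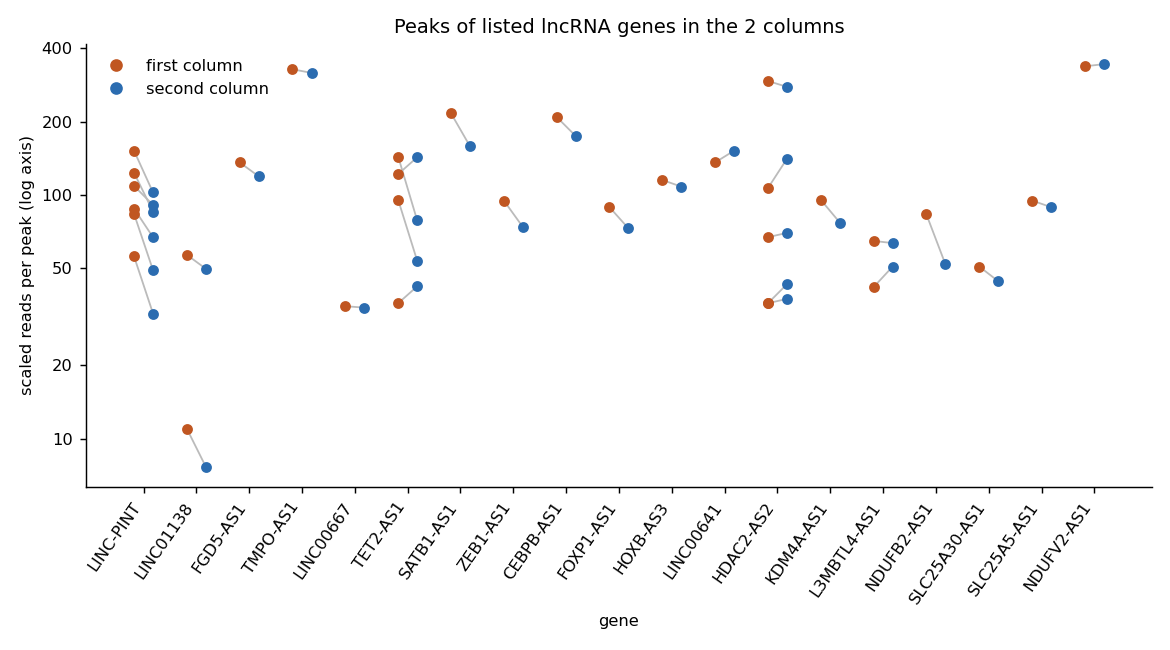
Scaled reads per peak (log axis) in the first column (orange, left) and second column (blue, right) for the peaks of the listed lncRNA genes, each pair of points joined for 1 peak. All 6 LINC-PINT peaks are higher in the first column, while the 4 TET2-AS1 peaks and the 5 HDAC2-AS2 peaks go both ways.

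Of the divergent transcripts, 8 of 10 peaks lay over a promoter that also holds a coding start, and they went both ways. CHKB-DT, at a choline kinase gene, had 45 reads in the first column and 76 in the second column, a fold of −0.70 (interval −1.26 to −0.15). NUP50-DT, at a nuclear pore gene, had 119 reads in the first and 169 in the second column, a fold of −0.44 (interval −0.80 to −0.10). NCK1-DT had 2 peaks: 151 reads in the first and 181 in the second column over the shared start with NCK1, an adaptor gene, and 141 in the first and 91 in the second column in a 3′ untranslated region, with folds of −0.20 (interval −0.53 to 0.12) and 0.69 (interval 0.30 to 1.09). The remaining -DT peaks, from OSER1-DT with 292 reads in the first and 295 in the second column to IL10RB-DT with 67 in the first and 54 in the second column, had intervals across 0. The 19 peaks of -IT1 genes ranged from −0.46 to 0.37, and all of their intervals crossed 0.

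Folds of 1 or more in size were mostly at peaks with few reads. Of the 15 higher ones, 1 reached the median signal of the table and 4 had under 20 reads in both groups, and of the 7 lower ones, 1 reached it and 6 had under 20 reads. Among those with more reads were B4GALT1-AS1, in an intron of a galactosyltransferase gene, with 99 reads in the first column and 40 in the second column (fold 1.36, interval 0.82 to 1.93), and LINC01697 with 50 in the first and 15 in the second column (fold 1.79). PRKX-AS1, at a protein kinase gene of the X chromosome, had 2 such peaks, with 58 and 40 reads in the first column, against 24 and 15 in the second column. NUTM2B-AS1 held the extremes at both ends: 42 reads in the first column and 11 in the second column in one peak (fold 1.99), and 1 in the first and 13 in the second column in another (fold −3.64). NUTM2B, OR2A1 and LINC00623 belong to families with near-identical copies, so reads there may have been placed on either copy and these values are uncertain. At most 20 reads in both groups were found in 29 lncRNA peaks (3.16%), against 4.49% of all peaks.

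Antisense, divergent and intronic transcripts could be set beside the gene they are named for. Of 275 partner symbols, 269 were found in RefSeq and 158 had peaks of their own, 673 in all. The median over pairs of the mean fold was 0.06 for the lncRNA-named and 0.08 for the partner-named peaks. Across the 158 pairs the mean folds had a Pearson correlation of 0.28 and a Spearman correlation of 0.33, given as a description, since both members of a pair share libraries and neighbouring DNA. Over the 158 pairs the mean folds, with the authors' scaling, had the same sign in 99 and opposite signs in 58. A pair with the same sign is ST7, whose 2 peaks held 331 reads in the first column and 220 in the second column (fold 0.65), as the 2 peaks of ST7-AS2 were higher in that group too (57 and 121 reads in the first column, against 25 and 74 in the second column). Opposite signs were found for URB1-AS1 (1.00, against −0.37 for URB1) and DDX11-AS1 (1.26, against −0.23 for DDX11). The URB1-AS1 peak holds the start of URB1 itself, and the URB1 value is 1 peak with an interval across 0 (−1.01 to 0.27). Mean folds were also opposite for the 2 peaks of WDFY3-AS2 (0.37, against −0.85 for WDFY3) and for NUTM2B-AS1 (−0.23, against 1.21 for NUTM2B). Summed reads of that last pair went the same way. NUTM2B-AS1 had 139 in the first and 103 in the second column (fold 0.49), and NUTM2B 144 in the first and 115 in the second (fold 0.38). These pairs were chosen after their values were seen.

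The share of lncRNA peaks differed by chromosome, from 1.09% of all peaks on chromosome 19 to 6.96% on chromosome 13. Of 3 segments with lower folds over all peaks, the one on chromosome 2 had the lowest median in these peaks. On chromosome 2 up to 90 Mb the 29 lncRNA peaks had a median fold of −0.29 (interval of the median −0.50 to −0.13, 5 above 0). The median of all 651 peaks there was −0.19. On chromosome 17 from 25 Mb the 28 lncRNA peaks had −0.11 (interval of the median −0.29 to 0.08), against −0.18 for all. On chromosome 9 from 40 Mb the 8 lncRNA peaks had −0.07 (interval −0.86 to 0.43), against −0.15 for all 580. These intervals take neighbouring peaks as independent and do not cover the spread between cultures, so the segments were not compared by a test. Such a segment shift moved with LINC01884, LINC01867, LINC02092 and ASB16-AS1, which lie in these segments, and its part in their values was not tested. The short arm of chromosome 5 held 93 lncRNA peaks with a median of −0.06, against −0.02 for all its peaks. Without the 3 segments, the median of LINC introns was −0.05 and that of antisense introns 0.12.

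Depth was equal in the median peak of the table, with 72 recovered reads in each group, and reads in peaks summed to 2791207 in the first column and 2682916 in the second column. Of these, lncRNA peaks held 77180 in the first and 77850 in the second column. The labels do not say whether libraries of 1 group were separate cultures, and less of the mark per cell and fewer cells with the mark cannot be told apart. The values have no external scale such as spiked-in DNA, so a loss of the mark that is even over the genome would not show.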

How the data were processed

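The deposited table lists 25514 peaks of H4K20me1 CUT&Tag. The submitters' processing notes name build hg38 and the tools Bowtie2, cutadapt and DESeq, without versions, order or the peak caller. The authors deposited log2 values of scaled reads per peak, 1 column per group, with the log2 fold change, a p-value and an adjusted p-value for each peak. The fold equals the first minus the second column within 0.01 in every peak. Low log2 values (1.5 to 5.5) were all log2 of whole reads plus a constant, 0 in the first and −0.057 in the second column, within 0.0051, so reads were recovered; above 100 reads they may be off by 0.347%. Folds are scaled by the authors and reads are not.

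With 1 column per group no test was made here, and every p-value is the authors' own. Exact Clopper-Pearson 95% intervals of the ratio of reads were computed, and the scripts were tested on simulated data. Intervals of a median came from binomial order statistics over peaks, which takes the peaks as independent. Members, lists and alternatives were chosen with earlier results of these data known. The genes named were the 12 highest and 12 lowest folds at or above the median signal (log2 mean 6.15), 1 peak per gene, the 6 genes with most peaks, the 6 densest peaks and every gene of 4 lists with a peak. Genes of folds of 1 or more in size, of -DT transcripts and with 5 or more peaks were chosen after their values were seen. Host genes came from the annotation, and symbols and promoters from RefSeq (GRCh38.p14). A coding start was counted where RefSeq's start lies in the peak. Distal intergenic peaks were left out of the members. The host gene of 1 peak is not reported here. Python 3.11.15, pandas 2.3.3, numpy 2.4.6, scipy 1.17.1 and matplotlib 3.10.9 were used.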

Additional observations from a re-analysis of the deposited data

How the results depend on the processing

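Of 80 alternatives over the summary values, 45 left the value within its interval or within 1.5 times. All 48 rescaled values of the 24 named peaks stayed within their counting intervals. That was fixed in advance, since the shifts (−0.114 with equal reads and −0.057 with no scaling) are smaller in size than the reach of these intervals. At or above the median signal, folds of 1 or more fell to 1 peak and those of −1 or less to 1, unadjusted p-values under 0.05 in the authors' table to 8 higher and 5 lower, and the median level was 75.2 scaled reads per kb, against 61.9 for all members. With peaks in another gene than the nearest left out, 3 peaks had a fold of −1 or less and 10 were higher by the authors' p-value. With 1 peak per gene, 6 and 4 peaks had folds of 1 or more and of −1 or less. LINC symbols alone gave a median fold of −0.04, 3 and 3 such peaks and 56.0 scaled reads per kb; the other symbols gave 0.08, 4 peaks at −1 or less and 66.0. Scaled to equal reads in peaks, the median fold was −0.084, in promoters −0.054 and in introns −0.124, with 13 peaks at −1 or less, and with no scaling the median was −0.027. An unadjusted p-value under 0.01 in the authors' table left 9 higher and 3 lower peaks, and a fold of 0.58 gave 80 and 76. For the medians by kind and place and the genes with 5 or more peaks, the alternatives were chosen after seeing the data. LINC introns were −0.17 with equal reads and −0.12 with no scaling. Antisense introns were 0.24 at or above the median signal and −0.014 with equal reads. Peaks placed in a coding gene were 0.16 at or above the median signal and −0.024 with equal reads. Exon and intron peaks placed elsewhere were 0.015 with 1 peak per gene, −0.16 with equal reads and −0.11 with no scaling. Genes with 5 or more peaks and a summed interval below 0 numbered 14 with equal reads, against 5. The cause of these moves was not tested, apart from the rescaling, which shifts every fold alike, and the subsets, which hold fewer peaks. No paired analysis was possible because the table has 1 column per group and no value per library. For the same reason no library could be left out.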

Other observations

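Peaks with a long noncoding RNA symbol in distal intergenic DNA, outside the rule used here, numbered 1025 at 309 genes. Their median log2 fold change was −0.05 (quartiles −0.33 and 0.19), near that of LINC introns, against 0.00 for the 4786 other distal intergenic peaks. By the authors' deposited table, 34 of them (3.32%) were lower and 10 (0.976%) higher at an unadjusted p-value under 0.05, against 2.90% and 1.76% of the other distal intergenic peaks and 1.69% and 3.37% of all peaks.

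Of 43 other well-known long noncoding RNA genes whose symbols the rule does not cover, 21 had 39 peaks. Their median was 0.28, with 27 above and 12 below 0, against a median of 0.06 and 58.2% above 0 over all peaks. PVT1, the RNA gene beside MYC, held 16 of the peaks (median 0.75, 15 above 0), so the pooled values lean on 1 locus. PVT1 had 6580 reads in the first and 4147 in the second column, a fold of 0.72 (interval 0.67 to 0.78). NEAT1, the scaffold RNA of paraspeckles, had 622 reads in the first and 764 in the second column, a fold of −0.24 (interval −0.39 to −0.09). MALAT1, its neighbour and an RNA of nuclear speckles, had 75 reads in the first and 121 in the second column, a fold of −0.63 (interval −1.07 to −0.21). NORAD, which binds Pumilio proteins, had 508 reads in the first and 424 in the second column, a fold of 0.32 (interval 0.13 to 0.51). DLEU2, host of the miR-15a and miR-16-1 genes, had 501 reads in the first and 609 in the second column over 3 peaks, a fold of −0.22 (interval −0.40 to −0.05). These genes went both ways, and PVT1 was the only one of them with peaks under an unadjusted p-value of 0.05 in the authors' deposited table (9 peaks).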
